A study of Mus musculus with 20 samples.

Results

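Bortezomib is a drug that blocks the proteasome, the barrel-shaped protease that degrades proteins marked with ubiquitin, and it is used against multiple myeloma, a cancer of antibody-secreting plasma cells. The earliest time of exposure in a mouse myeloma time course, 2 h, was compared here with the untreated 0 h state of the same cultures. The members were chosen by array title: the 2 h arrays 589bmP-2, 595spP-2 and 595spVR-2, and the 0 h array of each of these 3 cultures, which gave 6 of the 20 arrays of the series. All cells carried the Bcl-XL/Myc double transgenic genotype on an FVBN by BL/6 cross background, and the 0 h arrays had no drug while all later arrays had 33 nM bortezomib. The cultures were a bortezomib-sensitive culture of the line 589bm (589bmP), a sensitive culture of the line 595sp (595spP) and a resistant culture of 595sp (595spVR). The resistant culture of 589bm was left out because its 2 h array was near blank, with a mean intensity of 140 against 523 to 638 on the 6 arrays used.

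Cells whose proteasome is blocked accumulate damaged and short-lived proteins. Heat shock factor then switches on chaperones such as HSP70, and the kinases of the integrated stress response slow translation and raise the transcription factor ATF4 and its targets. The hypoxia-inducible factors are themselves proteasome substrates, marked for destruction by the prolyl hydroxylases and the von Hippel-Lindau protein when oxygen is present, so their target genes are of interest when the proteasome is inhibited.

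Total RNA was measured on Illumina mouse bead arrays, with 1 array for each culture and time. The titles were followed for grouping, although the sensitivity and time listed among the characteristics of the 5 arrays of 595spVR contradict them; the source name and description give the same culture and time as the title. On each of the 6 arrays the nearest other array was from the same culture. The level of the heat shock gene Hspa1a was 6.07 at 0 h and 6.62 at 2 h on the arrays titled 595spVR, against 7.64, 7.99 and 8.39 at 8, 16 and 24 h. Values without 595spVR are given where they bear on a result. There is no untreated array after 0 h, so drug, time in culture and handling cannot be told apart. The labels do not say which promoters drive the transgenes or how the resistant culture was derived.

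Markers of plasma cells and B cells were bright in all 6 arrays. The summed normalized intensity of the 10 plasma cell markers kept of 13 symbols listed was 30547 to 34545 at 0 h and 30990 to 34227 at 2 h. Among these were Sdc1, Xbp1 and Irf4, which mark the plasma cell state. Tnfrsf17 and Jchain, which was listed also by its older symbol Igj, were not among the probes kept. For 7 of 9 B cell markers the sum was 12934 to 20459 at 0 h and 12472 to 18762 at 2 h. For 4 of 7 T cell markers the sums at 0 h and 2 h were 1029 to 2891, then 1092 to 2517. They were 394 to 1599, then 375 to 1517, for 3 of 10 macrophage and neutrophil symbols, which count Adgre1 also by its older symbol Emr1. For 3 of 5 stromal markers they were 330.0 to 388, then 368 to 434. The lists differ in probes and in number of genes, so their sums are not comparable with each other as levels. Both erythroid markers kept of 5, the globins Hba-a1 and Hbb-bt, summed to 220 to 691 at 0 h and 188 to 287 at 2 h.

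After 2 h, 1 of the 22641 probes tested passed an adjusted p under 0.05 (0.00442%), by limma with Benjamini-Hochberg adjustment and the culture as a block. That probe measures Ankrd37, an ankyrin repeat gene on chromosome 8 and a known target of hypoxia-inducible factor. At an unadjusted p under 0.05 there were 2521 probes (11.1%), of which 1325 were higher (5.85%) and 1196 lower (5.28%). Only Ankrd37 is therefore called, and all other differences below are values that did not pass. All levels are log2 normalized intensities and all changes are log2 differences of 2 h minus 0 h within a culture. For some genes below, the 2 h and 0 h arrays did not overlap. The share of all tested genes with this pattern was not counted, so it has no background to be compared with. The SE printed with a mean is the moderated standard error of limma, which draws most of its spread from other probes. Of 51 named genes with several kept probes, 25 had probes of both signs, among them Tardbp, Kcnq1ot1, Mdm2, Cd40, Nfkbia, Cry2, Clock, Herpud1, Myb and Trib3, so the values of these genes rest on their brightest probe. Such disagreement was common over all genes. Of 6836 dimmer kept probes, 56.2% in 589bmP, 53.6% in 595spP and 54.8% in 595spVR had the sign of the brightest probe of their gene.

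Ankrd37 fell in all 3 cultures. Its level went from 9.18 to 8.05 in 589bmP, from 9.26 to 7.65 in 595spP and from 8.99 to 7.77 in 595spVR. The 3 arrays at 0 h lay between 8.99 and 9.26, all above the 3 arrays at 2 h, so the groups did not overlap. The changes were -1.12, -1.61 and -1.22, with a mean of -1.32 ± 0.12 (SE, n = 3) and an adjusted p of 0.0058 by limma, which is 0.401 of the 0 h level. In total RNA from a culture, fewer cells with a transcript and less of it per cell cannot be told apart. The later arrays share the same 0 h arrays, and the mean change there was -1.72 at 8 h, -1.98 at 16 h and -2.23 at 24 h. The level in 595spVR was 7.78, 7.79 and 7.47 at these times, against 7.77 at 2 h, while in 595spP it went on to 6.91, 6.54 and 6.38. The resistant 589bm culture, with no usable 2 h array, had 9.40 at 0 h and 7.78, 7.92 and 7.88 at 8, 16 and 24 h.

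The call of Ankrd37 was lost in 3 alternative fits, in each of which its mean change was the same -1.32. Without the culture block its adjusted p was 0.99996 (unadjusted p = 0.00018), in a fit over the 15 arrays of the 3 cultures it was 0.226, and with the brighter 25% of probes it was 0.0947. Its mean change was -1.17 to -1.42 when each culture was left out in turn, and it passed each time. The size of the change varied with the background handling. It was -0.94 with the authors' values, -0.95 with no background correction and -1.47 with a background offset of 16. Ankrd37 passed in these fits too. The fold given above therefore holds only for the background correction used here, with an offset of 50. With median scaling in place of quantile normalization 24 probes passed, 19 higher and 5 lower, among them those of Kdm2a, Bcl2l11, Hnrnpdl and Impact.

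**Figure D1:**
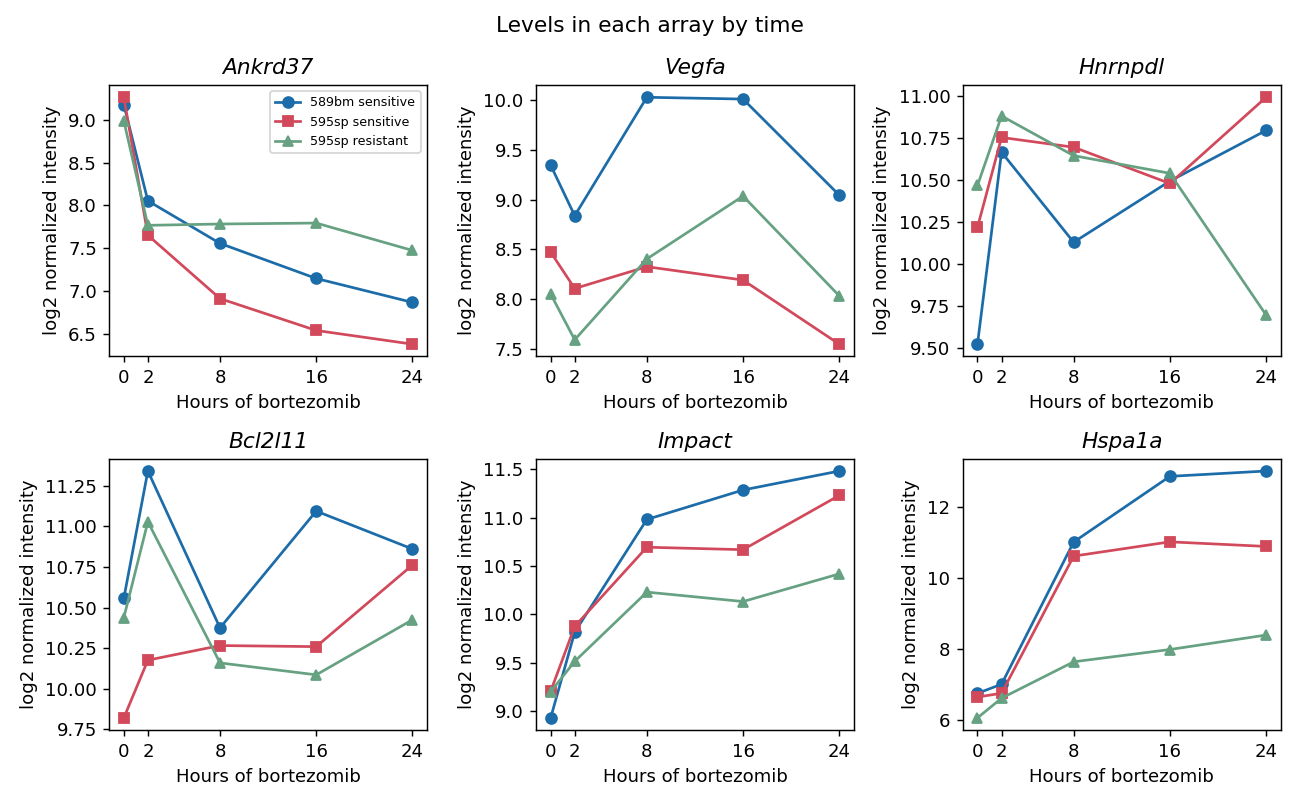
Log2 normalized intensity (y axis) of 6 genes against hours of bortezomib (x axis), 1 point per array, in 589bm sensitive (circles), 595sp sensitive (squares) and 595sp resistant (triangles); y axes differ between panels and do not start at 0. Ankrd37 lay at 8.99 to 9.26 at 0 h and 7.65 to 8.05 at 2 h, while Hspa1a lay at 6.07 to 6.76 and then 6.62 to 7.01.

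The promoters of 4 genes of the hypoxia-induced list are shown because Ankrd37, Egln3 and Vegfa had the most negative mean changes of that list at 2 h, while Pdk1 lay near 0 at 2 h and lower later. Each runs from 250 bases before to 50 after the gene's first start in the RefSeq table of GRCm38.p6. Capitals mark ACGTG and GCGTG, the core that hypoxia-inducible factor is known to bind, found on either strand.
Ankrd37, chr8:45999801-46000100, minus strand: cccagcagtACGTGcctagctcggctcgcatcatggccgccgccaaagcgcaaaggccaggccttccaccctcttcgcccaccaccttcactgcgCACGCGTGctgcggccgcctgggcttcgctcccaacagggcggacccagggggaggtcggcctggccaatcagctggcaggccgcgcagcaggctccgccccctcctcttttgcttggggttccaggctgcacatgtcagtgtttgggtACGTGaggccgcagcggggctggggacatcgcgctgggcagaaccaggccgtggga
Egln3, chr12:54203825-54204124, minus strand: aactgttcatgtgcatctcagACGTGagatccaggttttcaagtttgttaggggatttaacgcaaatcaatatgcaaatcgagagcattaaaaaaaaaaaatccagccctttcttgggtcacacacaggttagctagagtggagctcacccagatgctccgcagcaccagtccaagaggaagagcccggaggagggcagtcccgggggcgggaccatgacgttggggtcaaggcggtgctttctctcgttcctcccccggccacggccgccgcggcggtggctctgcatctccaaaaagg
Vegfa, chr17:46032328-46032627, minus strand: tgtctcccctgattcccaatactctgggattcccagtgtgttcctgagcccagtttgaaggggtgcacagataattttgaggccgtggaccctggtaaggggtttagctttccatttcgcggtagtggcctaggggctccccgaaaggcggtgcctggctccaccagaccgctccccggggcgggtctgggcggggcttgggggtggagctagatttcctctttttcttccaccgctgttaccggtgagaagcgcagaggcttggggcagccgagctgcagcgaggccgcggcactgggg
Pdk1, chr2:71872974-71873273, plus strand: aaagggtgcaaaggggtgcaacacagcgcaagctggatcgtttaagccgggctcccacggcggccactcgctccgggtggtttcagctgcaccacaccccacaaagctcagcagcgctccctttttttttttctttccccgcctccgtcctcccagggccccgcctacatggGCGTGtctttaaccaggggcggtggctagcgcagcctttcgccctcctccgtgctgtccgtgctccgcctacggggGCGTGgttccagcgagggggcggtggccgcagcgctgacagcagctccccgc
The Ankrd37 promoter holds ACGTG in 2 places, starting 241 and 6 bases before the start site, and GCGTG once on each strand, at overlapping positions. Egln3 has a single ACGTG 229 bases before the start, Pdk1 has GCGTG in 2 places, and Vegfa has neither in this window. One of these cores occurred in 43.8% of 27025 promoters in the table and in 60.5% of the 9465 promoters matched to genes tested here. It occurred in 16 of the 19 matched hypoxia-induced genes (84.2%). A match is a description of the letters only.

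The hypoxia-induced list held 27 genes, of which 22 were tested. At an unadjusted p under 0.05, 8 of them were lower and 0 higher, where the background was 4.65% lower and 6.08% higher over the 11676 genes tested. In all 3 cultures 10 were lower and 2 higher (background 14.2% and 19.9%). The median change of the list was -0.11, against 0.01 over all genes tested. It was -0.03 without 589bmP, -0.14 without 595spP, -0.14 without 595spVR and -0.06 with median scaling. Without 589bmP, 595spP or 595spVR in turn, 8, 4 and 3 members were lower at an unadjusted p under 0.05, with backgrounds of 6.51%, 5.10% and 4.09%. These fits borrow nearly all of their spread from other probes, so their counts are not comparable with each other or with the main count.

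Vegfa encodes the growth factor that draws in new blood vessels. Its level went from 9.34 to 8.84 in 589bmP, from 8.47 to 8.11 in 595spP and from 8.05 to 7.59 in 595spVR. It was lower in each culture, although the cultures differ so much in level that the 0 h and 2 h groups overlap. The mean change was -0.44 ± 0.10 (SE, n = 3; limma adjusted p = 0.22), and a dimmer probe of Vegfa gave -0.02. At 8 h its mean change from the same 0 h arrays was 0.30, at 16 h 0.46 and at 24 h -0.41. In 595spP it was -0.15 at 8 h and -0.28 at 16 h, while the other cultures were higher at these times.

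Egln3 encodes a prolyl hydroxylase that marks hypoxia-inducible factor for destruction and is itself induced by it. Its level went from 8.34 to 7.65 in 589bmP, from 9.20 to 8.74 in 595spP and from 7.36 to 7.17 in 595spVR. It was lower in each culture, least in the resistant one, and the mean change of -0.45 ± 0.12 (SE, n = 3) had an adjusted p of 0.28 by limma. Later means were -0.91, -1.13 and -1.20 at 8, 16 and 24 h.

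P4ha1, a subunit of the collagen prolyl hydroxylase, had a mean change of -0.31, with -0.26 to -0.38 in the 3 cultures. Slc2a1, the glucose transporter GLUT1, had -0.28, with 0.07 in 589bmP and -0.40 and -0.51 in the 595sp cultures. Kdm3a, a histone demethylase, had -0.24, Ddit4, an inhibitor of the mTOR kinase, -0.24, and Hilpda, a lipid droplet protein, -0.23. These were the other members at an unadjusted p under 0.05, and P4ha1, Kdm3a, Ddit4 and Hilpda were named after their values were seen. A dimmer probe of Hilpda gave 0.03 and one of P4ha1 -0.19, while those of Kdm3a gave -0.06 to -0.18. The other 14 members ranged from -0.24 to 0.17. Pdk1, a kinase that closes the route from pyruvate into the mitochondrion, had -0.08 at 2 h and -0.88 at 8 h, and the adenylate kinase gene Ak4 had -0.10 and -0.92. Hif1a, which encodes the alpha subunit of the factor itself, had -0.04, -0.22 and -0.40 in the 3 cultures.

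**Figure D2:**
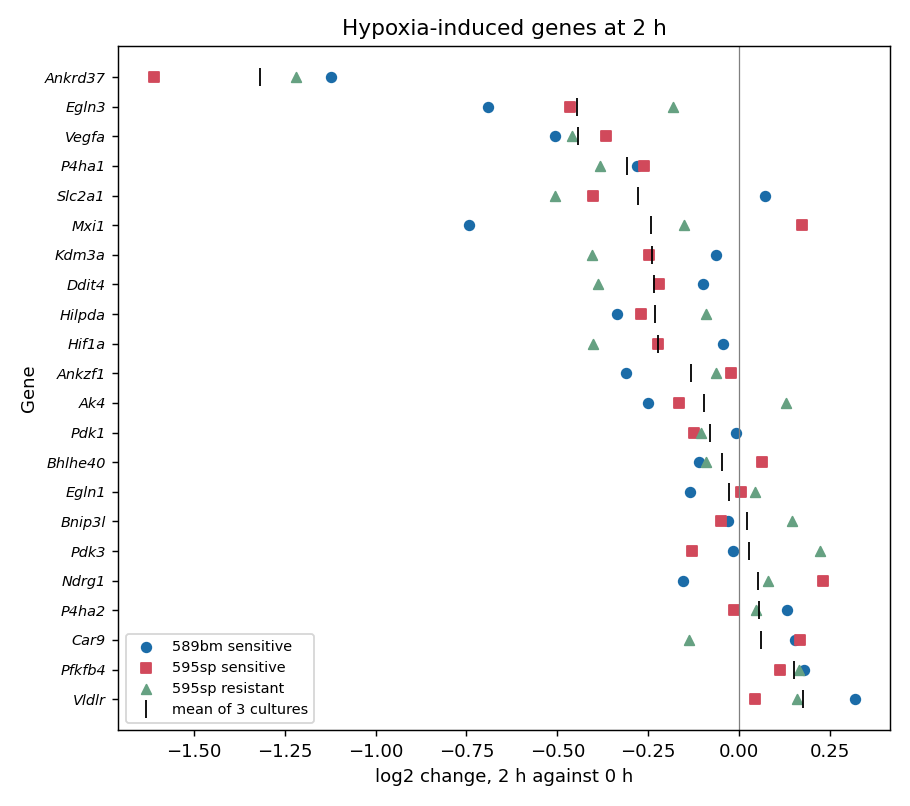
Log2 change from 0 h to 2 h (x axis) of the 22 tested genes of the hypoxia-induced list (y axis, ordered by mean change), 1 symbol per culture and a tick for the mean of 3 cultures. Ankrd37 stands at -1.12 to -1.61, and the other means lie between -0.45 and 0.17.

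The cytosolic heat shock list also holds the mitochondrial chaperone genes Hspd1 and Hspe1, and Chac1, which is in the ATF4 list as well. Of its 24 genes tested, 5 were higher (20.8%) and 2 lower (8.33%) at an unadjusted p under 0.05 (background 6.08% and 4.65%), and 0 passed the adjusted test. Chac1 was among the higher ones and Hspe1 among the lower ones. The median of the list was -0.03 at 2 h and 0.95 at 8 h. Hspa1a, an inducible HSP70 chaperone, went from 6.76 to 7.01 in 589bmP, from 6.65 to 6.76 in 595spP and from 6.07 to 6.62 in 595spVR. Its mean change of 0.31 ± 0.12 (SE, n = 3; limma adjusted p = 0.40) stands beside 3.26 at 8 h. The groups overlap at 2 h: the 2 h level in 595spVR was below the 0 h levels of both sensitive cultures. Hspa1b, the neighbouring HSP70 gene, had 0.19, Dnajb1, an HSP40 cochaperone, 0.01 and Hspb1, the small heat shock protein HSP27, 0.04, against 2.25, 1.21 and 2.25 at 8 h. Hspa1a and Hspa1b are near-identical, so their probes may share signal.

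Zfand2a, an arsenite- and stress-inducible zinc finger gene that acts with the proteasome, had the highest mean change of the heat shock list. Its level went from 8.89 to 9.80 in 589bmP, from 9.47 to 10.24 in 595spP and from 9.63 to 9.67 in 595spVR. Both sensitive cultures were higher and the resistant one was almost level, a contrast that was not tested. The mean change was 0.57 ± 0.15 (SE, n = 3; limma adjusted p = 0.26). Bag3, a cochaperone that directs clients to autophagy, had 0.29, 0.46 and 0.22. Hspe1 and Hsp90aa1, the mitochondrial HSP10 and the inducible HSP90, had means of -0.49 and -0.45, which came mainly from 589bmP with -1.23 and -1.19. Hspa8, the constitutive HSP70, had -0.10 by its brightest probe, while a second probe gave -0.77 (limma adjusted p = 0.0948) and another probe -0.82. Hspa8 and the replication gene Mcm4, whose brightest probe gave 0.10 and another -0.76, were named after their values were seen, and both rest on probes that differ.

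Of 26 genes of the ATF4 and integrated stress response list, 7 were higher (26.9%) and 2 lower (7.69%) at an unadjusted p under 0.05 (background 6.08% and 4.65%). In all 3 cultures 12 were higher and 5 lower (background 19.9% and 14.2%). The list median was 0.08 at 2 h and 1.11 at 8 h. Ddit3, which encodes the death-associated factor CHOP, went from 7.67 to 8.45 in 589bmP, from 7.56 to 7.84 in 595spP and from 7.41 to 7.69 in 595spVR. All 3 arrays at 2 h lay above all 3 at 0 h, but narrowly, with 7.69 in 595spVR against 7.67 in 589bmP. The mean change was 0.45 ± 0.13 (SE, n = 3; limma adjusted p = 0.28), against 2.49 at 8 h. A dimmer probe of Ddit3 gave 0.21 at 2 h. Chac1, which degrades glutathione and is a member of both lists, had 0.87, 0.41 and 0.16. Trib3, a pseudokinase that feeds back on ATF4, had 0.52, 0.26 and 0.14, and Atf3, an inducible transcription factor, had 0.53, 0.37 and 0.00. In Chac1, Trib3 and Atf3 the resistant culture had the lowest value, although the difference between sensitive and resistant cultures was not tested with 2 cultures against 1. Atf4 itself had -0.37, 0.24 and 0.15. Impact, an inhibitor of the kinase GCN2, which senses uncharged tRNA, went from 8.93 to 9.81, from 9.20 to 9.88 and from 9.20 to 9.51. Its 2 h arrays all lay above its 0 h arrays, with a mean of 0.62 ± 0.12 (SE, n = 3; limma adjusted p = 0.14) at 2 h and 1.52 at 8 h. A dimmer probe of Impact gave 0.09 at 2 h.

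The cytosolic aminoacyl-tRNA synthetases, which charge tRNAs and many of which ATF4 drives, were higher in all 3 cultures for 10 of 16 genes (background 19.9%) and lower in all 3 for 1. At an unadjusted p under 0.05, 2 were higher, Cars with 0.51 and Aars with 0.25. The list median was 0.15, the highest of the lists with 8 or more genes tested. A dimmer probe of Cars gave -0.22.

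**Figure D3:**
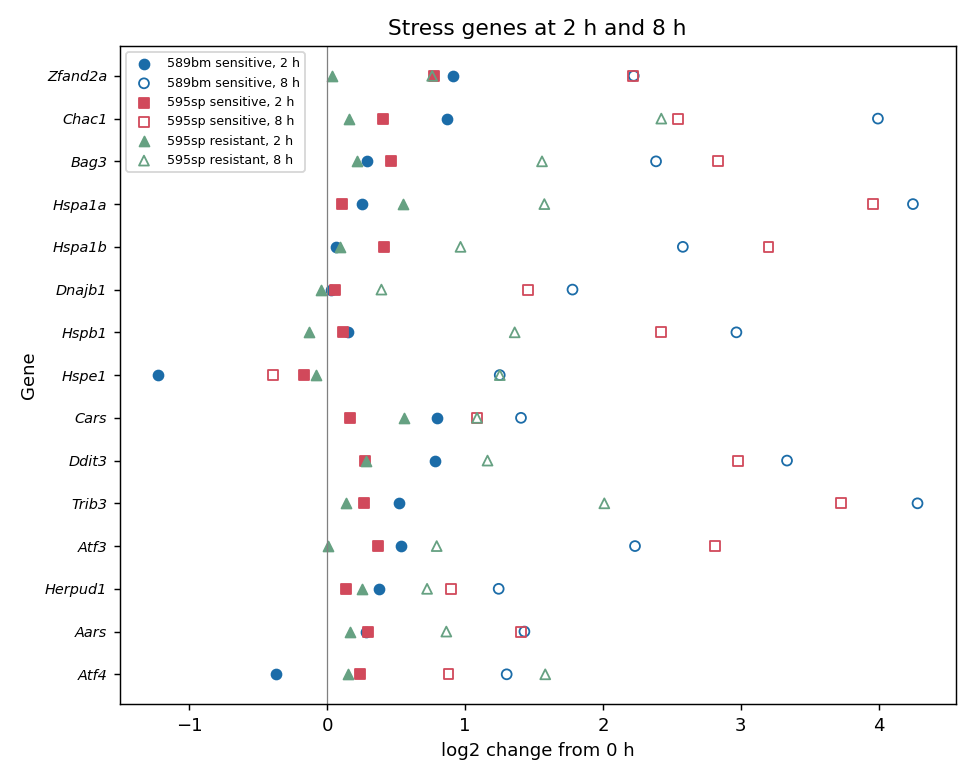
Log2 change from the 0 h array of the same culture (x axis) at 2 h (filled symbols) and 8 h (open symbols) for 15 stress genes (y axis), 1 symbol per culture. At 2 h the values run from -1.23 for Hspe1 to 0.92 for Zfand2a, both in 589bmP, while at 8 h Hspa1a and Trib3 had means of 3.26 and 3.34.

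**Figure D4:**
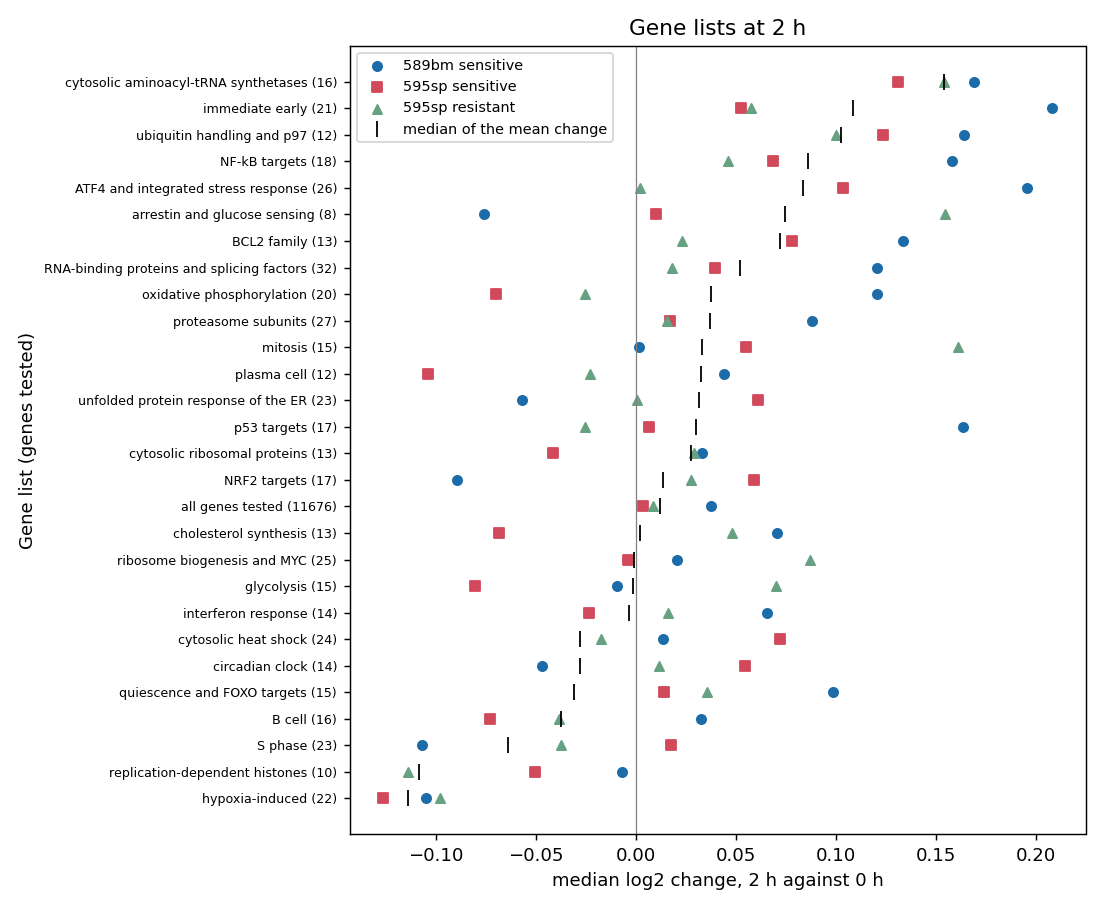
Median log2 change from 0 h to 2 h (x axis) of each gene list with 8 or more tested genes and of all genes tested (y axis, with the number tested), 1 symbol per culture and a tick for the median of the mean change. The hypoxia-induced list is lowest at -0.114, close to the replication-dependent histones at -0.108, and the aminoacyl-tRNA synthetases are highest at 0.15. With median scaling the histones (-0.111) lay below the hypoxia-induced list (-0.056).

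Of 27 genes for subunits of the proteasome, the drug's target, 2 were higher (7.41%) and 3 lower (11.1%) at an unadjusted p under 0.05 (background 6.08% and 4.65%), with a median of 0.04 at 2 h and 0.47 at 8 h. Psmb5, which encodes the subunit that bortezomib binds, went from 10.12 to 9.64, from 9.44 to 9.56 and from 9.11 to 8.86, with no single direction. Psmd4, a ubiquitin receptor of the particle's cap, had 0.30, 0.12 and 0.09. Psmd14, the deubiquitinase of the cap, had -0.35 as a mean, of which -0.82 came from 589bmP. Sqstm1, the autophagy receptor p62, had 0.50, 0.13 and 0.08 at 2 h and a mean of 1.69 at 8 h.

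Among the genes with 1 sign in all 3 cultures, 12 with the smallest p on the higher side and 12 on the lower side were named. On the higher side, Kdm2a, which encodes a histone demethylase, went from 9.67 to 10.29 in 589bmP, from 9.66 to 10.27 in 595spP and from 9.84 to 10.41 in 595spVR. Its 3 changes were nearly equal, its groups did not overlap, and the mean was 0.60 ± 0.09 (SE, n = 3; limma adjusted p = 0.12). A dimmer probe of Kdm2a gave -0.02. Hbp1, a repressor that holds cells in G1, had 0.42, 0.60 and 0.51, and of its 5 probes the 3 brightest gave 0.48 to 0.51 and the dimmest -0.19. Hbp1 had later means of 0.51, 0.94 and 1.54. Zfp52, a zinc finger gene, had 1.06, 0.49 and 0.63 and Ankrd11, a chromatin cofactor, 0.61, 0.42 and 0.43, with other probes of both signs.

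Bcl2l11 encodes BIM, a protein that binds BCL-XL and the other survival members of its family and starts apoptosis. Its level went from 10.56 to 11.34 in 589bmP, from 9.82 to 10.18 in 595spP and from 10.44 to 11.03 in 595spVR. It was higher in each culture, while the groups overlap because 595spP was lower than the other cultures at both times. The mean change was 0.58 ± 0.10 (SE, n = 3; limma adjusted p = 0.13), and it was -0.01 at 8 h, 0.21 at 16 h and 0.41 at 24 h from the same 0 h arrays. Its other probes gave 0.38, 0.04 and 0.03. Of 13 BCL2 family genes tested, 3 were higher (23.1%) and 1 lower (7.69%) at an unadjusted p under 0.05 (background 6.08% and 4.65%). Bak1, a pore-forming killer protein, was among the higher ones with 0.35, and Bad, another initiator, was the lower one with -0.33. The survival gene Mcl1 had -0.06, 0.30 and 0.27. Bcl2l1, the transgene's gene, was at 14.50 to 14.70 at 0 h and 14.58 to 14.92 at 2 h, and the NOXA gene Pmaip1 had 0.00 as a mean at 2 h and 0.71 at 8 h.

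Itprip, a gene for a protein that binds the inositol trisphosphate receptor, had 0.74, 0.49 and 0.69. Ipo7, a nuclear import receptor for ribosomal proteins, had 0.77, 0.95 and 0.42 at 2 h, a mean of 0.66 at 8 h and -0.03 at 16 h. Arhgef2, an activator of RhoA, had a mean of 0.68, while its 3 other probes gave -0.08 to 0.04. Mir17hg, the host transcript of a microRNA cluster, had 1.26, 0.64 and 0.31, and the predicted gene Gm36027 had 0.88, 0.50 and 0.67.

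Of 32 genes for RNA-binding proteins and splicing factors tested, 7 were higher (21.9%) and 4 lower (12.5%) at an unadjusted p under 0.05 (background 6.08% and 4.65%), with a median of 0.05. Hnrnpdl, a splicing factor that regulates its own transcript, went from 9.52 to 10.67 in 589bmP, from 10.22 to 10.76 in 595spP and from 10.47 to 10.88 in 595spVR. All its 2 h arrays lay above all its 0 h arrays, with a mean of 0.70 ± 0.13 (SE, n = 3; limma adjusted p = 0.14), while its other 3 probes gave 0.20, -0.13 and 0.00. Tardbp, which encodes TDP-43, had 1.04, 0.22 and 0.24. Tra2b, a splicing activator, had -0.57, -0.25 and -0.67, and Ddx5, an RNA helicase, had -0.13, -0.61 and -0.76. At 8 h Tra2b had a mean of 0.42 and Ddx5 of 0.23, both of the opposite sign to 2 h.

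On the lower side, Ankrd37 was followed by Umps, which makes the pyrimidine nucleotide UMP. Its level went from 9.77 to 9.21 in 589bmP, from 10.06 to 9.52 in 595spP and from 10.38 to 9.80 in 595spVR. The 3 changes lay within -0.55 and -0.58, the groups overlap, and the mean was -0.56 ± 0.09 (SE, n = 3; limma adjusted p = 0.12), with 0.28 at 8 h. All 4 probes of Umps were negative, from -0.07 to -0.56. Bcl11a, a zinc finger repressor needed for B cell development, had -0.54, -0.48 and -0.70, with later means of -1.12, -1.37 and -1.55, and both its probes were negative. Txnip, an arrestin-family protein that limits glucose uptake, went from 13.39 to 12.76, from 11.51 to 11.24 and from 11.72 to 10.75. It was lower in each culture by both of its probes, with means of -0.62 and -0.53, and -0.65 at 8 h.

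Cited2, which competes with hypoxia-inducible factor for its coactivators, had -0.49, -0.39 and -0.44, while its dimmer probes gave means of 0.06 and -0.14. Rbbp7, a histone-binding subunit of several chromatin complexes, had -0.28, -0.57 and -0.61, and 3 of its 4 probes gave -0.49 to -0.53. Mtch2, a mitochondrial outer membrane protein, had -0.48, -0.43 and -0.59, while its dimmer probes gave means of -0.09 and -0.003. Atp5pb, a subunit of ATP synthase, had -0.31, -0.48 and -0.73, and Rpl7a, a ribosomal protein, had -0.72, -0.34 and -0.45. Other probes of Atp5pb gave means of -0.52, 0.07 and -0.13. Sla, a signalling adaptor of lymphocytes, had -0.33, -0.40 and -0.61, and the predicted gene Gm5643 had -0.36, -0.29 and -0.64. Of 13 cytosolic ribosomal protein genes tested as a list, 0 were past an unadjusted p under 0.05 in either direction.

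Of 23 S phase genes 3 were lower (13%) and 1 higher (4.35%) at an unadjusted p under 0.05, with backgrounds of 4.65% and 6.08%. Ccne1 and Ccne2, the cyclins that carry cells into S phase, had means of -0.47 and -0.51, and Prim1, which makes the primers of DNA replication, had -0.40. These 3 were the lower ones. Of 15 mitosis genes, 4 were higher (26.7%), among them the kinase Aurka with 0.28, and 1 lower (6.67%), Ube2c with -0.30, at the same threshold and backgrounds. Myc, which is also a transgene here, had 0.28, -0.07 and 0.07, and Pes1, a ribosome biogenesis gene, had -0.41.

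The oxidative stress genes Mafg and Osgin1 had 0.48 and 0.31, while Hmox1, the classical target of NRF2, had -0.24, 0.06 and 0.03. Txn1, thioredoxin, had -1.55 in 589bmP and 0.04 and -0.50 in the 595sp cultures. Bach1, a repressor of Hmox1, had 0.73 and 0.86 in the sensitive cultures and 0.04 in the resistant one. Of 18 NF-kB targets 1 (5.56%) was higher at an unadjusted p under 0.05 (background 6.08%), Cd40, a receptor of B cells, with 0.29, 0.43 and 0.44, and 0 were lower. Nfkbia, the inhibitor whose destruction by the proteasome frees NF-kB, had 0.51, 0.08 and 0.17. Of the immediate early genes, Egr1 had a mean of -0.35, Fos of -0.21, Jun of 0.05 and Ier3 of 0.35. The p53 target Mdm2 had 0.29, and Cdkn1a, the cell cycle inhibitor p21, had 0.43, -0.16 and -0.22. Srebf2, the master factor of cholesterol synthesis, had 0.51, 0.26 and 0.58 at 2 h and a mean of 0.00 at 8 h.

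Xbp1, a factor of plasma cells and of the unfolded protein response, had 0.13, 0.35 and -0.37. Herpud1, which helps to clear proteins from the endoplasmic reticulum, had 0.38, 0.14 and 0.25, while Hspa5, the chaperone BiP, had -0.80, 0.06 and -0.28 and Sec61b, of the translocation channel, -0.34, -0.27 and -0.33. Irf4, needed for plasma cells, had 0.07, 0.23 and 0.20. Of 12 plasma cell genes 0 passed an unadjusted p under 0.05, and of 16 B cell genes 2 were lower (12.5%, background 4.65%), Bcl11a and Blnk, a B cell receptor adaptor, with -0.27. The circadian output gene Dbp had -0.25, and the clock genes Cry2 and Clock had 0.39 and 0.32.

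The 3 cultures did not move by the same amount. The standard deviation over probes of the 2 h change was 0.324 in 589bmP, 0.189 in 595spP and 0.218 in 595spVR. Over 2-fold higher were 22 probes (0.0972%) in 589bmP and 0 in either 595sp culture, and over 2-fold lower were 265 probes (1.17%), 1 (0.00442%) and 6 (0.0265%). The only probe over 2-fold lower in all 3 was that of Ankrd37. At 8 h the standard deviation was 0.346, 0.378 and 0.324. Across probes, which share the arrays and are not independent, the 2 h changes of 2 cultures correlated with r = 0.147 (589bmP and 595spP), 0.181 (589bmP and 595spVR) and 0.25 (595spP and 595spVR).

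**Figure D5:**
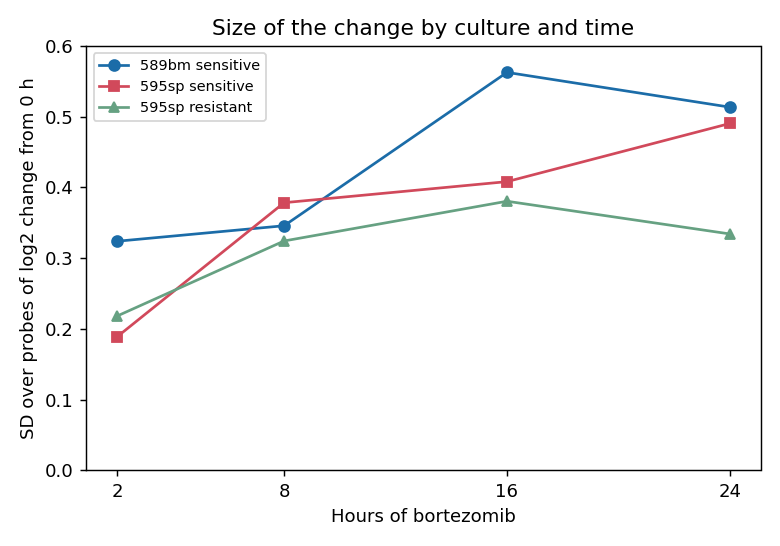
Standard deviation over 22641 probes of the log2 change from the 0 h array of the same culture (y axis, from 0) against hours of bortezomib (x axis), 1 line per culture. At 2 h it was 0.324 in 589bm sensitive and 0.189 and 0.218 in the 595sp cultures, and at 8 h 0.324 to 0.378.

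With each gene represented by its brightest probe, the 5 lowest values in 589bmP were those of ND4L, a subunit of complex I encoded in the mitochondrial genome, Atp5a1, the catalytic partner subunit of ATP synthase, Rps3a1, a ribosomal protein, Paip2, a translation inhibitor, and Wdr89. ND4L went from 10.80 to 8.64 in 589bmP, with changes of -0.40 and -0.52 in 595spP and 595spVR. Atp5a1 had -1.85, -0.12 and -0.23, and a second probe of it gave a mean of 0.27. Rps3a1, Paip2 and Wdr89 had -1.82, -1.82 and -1.72 in 589bmP and 0.17 to -0.27 in the 595sp cultures. The large values in these genes were therefore those of 1 culture. The cytosolic ribosomal protein list had a median of 0.03 in 589bmP and the oxidative phosphorylation list 0.12. Of 20 oxidative phosphorylation genes 4 were lower (20%, background 4.65%) at an unadjusted p under 0.05 and the median of the mean change was 0.04; Ndufb5 and Cox7a2 had -0.44 and -0.41, of which -0.89 and -0.83 in 589bmP.

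The 265 probes over 2-fold lower in 589bmP at 2 h had a median change there of -1.19, chosen for being low, and of -0.05 and -0.06 in 595spP and 595spVR. In 589bmP the same probes had a median of -0.14 at 8 h, -1.09 at 16 h and -1.32 at 24 h, all from the same 0 h array. A brighter probe of the same gene existed for 68 of them, and its median change in 589bmP was -0.08, with 9 over 2-fold lower. The globins Hba-a1 and Hbb-bt, which mark red cells, were also lower in 589bmP, by -1.55 and -1.11, and the macrophage genes Mpeg1 and Ctss by -1.05 and -0.71. In the 595sp cultures these 4 genes had 0.08 to -0.35. Not all tested markers of these cell types were lower in 589bmP: the erythroid marker Epor had 0.56 and the neutrophil marker Elane 0.07. The part of these cell types and of RNA quality in the values of 589bmP was not tested.

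On the higher side, 589bmP was led by Mir17hg, Hnrnpdl, Sfpq, a splicing factor with 1.15 against 0.06 and 0.05, Kcnq1ot1, a long non-coding RNA with 1.08 against 0.56 and 0.20, and Zfp52. In 595spP the highest values included Myb, a transcription factor of blood progenitors, with 0.85 against -0.02 and 0.14, and Mtus2 with 0.82. In 595spVR they included Dusp16, a phosphatase of stress kinases, with 0.77, and Adam7, a dim gene with a mean level of 6.49, with 0.94. The lowest in 595spVR included Ccne2 with -1.01. Bag2, an HSP70 cochaperone, had -1.13, -0.12 and -0.76.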

How the data were processed

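Per the file headers, the deposited non-normalized table holds 1-colour intensity for 45281 probes on 20 arrays, and the authors deposited a second table of intensity, which had a rank correlation of 1 with it on each array. The sources used here name neither the software nor the background handling. The intensities were background-corrected by normexp (offset 50), taken to log2 and quantile-normalized over the 19 arrays with signal, with limma 3.58.1 in R 4.3.3. The brighter 50% of probes by mean over the 6 arrays, 22641, were kept, and a gene was represented by its brightest kept probe, which gave 11676 genes. Of all probes, 34885 had 1 gene symbol in the platform annotation, 18 several and 10378 none, and the last 2 kinds were not named. For 34807 probes the symbol was updated through Entrez numbers. Of 110 genes named, 51 had several kept probes.

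The 6 arrays were fitted with limma (culture plus time, eBayes with an intensity trend, 2 residual and 9.15 prior degrees of freedom) with Benjamini-Hochberg adjustment over all probes. Arrays were paired by the culture named in their titles, and each was most like another array of its culture. Each culture has 1 array per time, so the only replication is between 3 cultures of 2 lines. With 2 residual against 9.15 prior degrees of freedom, p-values and SEs draw most of their spread from other probes. An exact sign-flip test of 3 pairs cannot go below 0.25. The number of arrays limits the precision. Named were the 12 genes of smallest p on each side with 1 sign in all cultures, any passing first, the 3 most changed members of each of 33 lists (625 genes, 483 tested), a set of stress and survival genes, and the 5 most changed genes of each culture in each direction. Members and lists were chosen with earlier results of these data known. Alternatives were no replicate block, other sets of arrays, scalings, background corrections and filters, and leaving out each culture; fits of the 6 arrays normalized alone, of all 20 arrays and of the mean of a gene's probes were added after seeing the data.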

Additional observations from a re-analysis of the deposited data

Results flagged for a closer look

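In 6 of the named genes both sensitive cultures had a change at 2 h of one sign and the resistant culture of the other. The difference between them was not tested, since only 1 resistant culture has a usable 2 h array. The share of all tested genes with this pattern was not counted, so the 6 genes have no background to be compared with. Some of the named genes were also chosen for having 1 sign in all cultures. No conclusion about resistance is therefore drawn from these 6 genes. The resistant change minus the mean sensitive change was 1.04 for Adam7, whose level in 595spVR went from 5.72 to 6.66. This difference was 0.49 for Fos, where the sensitive changes were -0.76 in 589bmP and a negligible -0.00014 in 595spP. It was -0.61 for Xbp1, with 0.13 and 0.35 in the sensitive cultures and -0.37 in the resistant one. It was 0.34 for Ak4, -0.26 for Hspb1 and -0.090 for Dnajb1. None of these genes passed the adjusted test at 2 h.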

How the results depend on the processing

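The 1 probe that passed with the replicate block became 0 without the replicate block, 0 in the fit of 15 arrays and 0 with the brighter 25% of probes, and it became 24 with median scaling (19 higher, 5 lower) and 7 with no filter (3 higher, 4 lower). The counts at an unadjusted p under 0.05 were 401 without the block, 747 with 15 arrays, 1024 with 19 arrays and 3819 with no filter, against 2521. Of those with median scaling 67.6% were higher, against 52.6%. When each culture was left out, 1 to 551 probes passed (551 without 589bmP, 418 without 595spP, 1 without 595spVR). With 1 residual degree of freedom these fits borrow nearly all of their spread from other probes, with 116 prior degrees of freedom without 589bmP and no finite number without 595spP, so their counts are not comparable with the main one. Ankrd37 had an adjusted p of 8.8e-21 to 0.99996 over the 16 alternatives and failed in 3 of them. Of 110 named genes 94 kept their sign under each alternative that measured them (16 had no value with the brighter 25% of probes and 1 none with an offset of 16), and 55 passed under at least 1 without passing as reported.

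The sign turned for 16 genes. With 19 arrays Hspb1 had -0.13, Dnajb1 -0.0089, Atf4 -0.044 and Cdkn1a -0.0039. With median scaling Pmaip1 had 0.031 and Pdk1 0.0056. Cdkn1a had -0.0073 with the authors' values and -0.0065 with no background correction. Averaging the probes of a gene gave -0.023 for Atf4, -0.082 for Cdkn1a and -0.33 for Mcm4. When each culture was left out, the lowest and highest values were -0.0081 and 0.13 for Hspb1, -0.38 and 0.058 for Fos, -0.11 and 0.043 for Hmox1, -0.19 and 0.14 for Cdkn1a, -0.033 and 0.021 for Pmaip1, -0.12 and 0.24 for Xbp1, -0.86 and 0.023 for Wdr89, -0.92 and 0.037 for Paip2, -0.012 and 0.041 for Dnajb1, -0.11 and 0.19 for Atf4, -0.046 and 0.12 for Jun, -0.026 and 0.48 for Mtus2, -0.20 and 0.0081 for Hspa8 and -0.11 and 0.46 for Adam7. The cause was not tested. With 3 cultures, 1 array each and small changes, absence of a call at 2 h does not show that a gene did not respond.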
